A study of Mus musculus with 12 samples.

Results

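Expression of 10 genes of the ATF4 and endoplasmic reticulum (ER) stress response, Atf3, Atf4, Ddit3, Asns, Trib3, Chac1, Xbp1, Ern1, Herpud1 and Sesn2, was followed in renal cortex of nephrotic and normal mice. Members were all probe sets of the deposited array table whose annotated gene symbol is one of these 10 names, which gave 24 of 45101 probe sets and 10 of the 18193 genes with a probe set of a single symbol. The study compared ICGN mice, labelled with nephrotic syndrome, with ICR mice, labelled normal, 4 or 8 weeks old. Each of the 4 groups has 3 arrays of the type Affymetrix Mouse Genome 430 2.0, which read one RNA sample each. ICGN is a mutant strain that arose from ICR stock and carries a defect of the Tns2 gene in every cell, so the strain difference is that of whole genetic backgrounds and not of a cell-type-specific deletion. No group received a treatment according to the labels, which number the replicates without saying whether each array is a separate mouse, and the p-values therefore measure the spread between arrays, which may be technical.

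The integrated stress response begins when a kinase that senses amino acid lack, viral RNA, haem lack or unfolded proteins in the ER phosphorylates the translation factor eIF2. General translation then falls while the Atf4 mRNA is translated better, so that ATF4 protein can rise without a rise of its mRNA, and ATF4 switches on Ddit3 (which encodes CHOP), Atf3, Trib3, Chac1, Sesn2 and Asns. The unfolded protein response has further branches: the sensor IRE1, encoded by Ern1, splices Xbp1 mRNA into the form that yields an active transcription factor, and ATF6 is cut free from the membrane, and both raise chaperones and degradation factors such as Herpud1. In the proteinuric kidney, protein reabsorption by the tubule and injury of podocytes are both known to engage these pathways. The arrays read mRNA and not eIF2 phosphorylation, Xbp1 splicing or protein.

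The regulatory letters that ATF4 and its partners are known to bind were looked up first, since they show which members carry an element of the pathway next to their start. RefSeq promoter windows (build GRCm38.p6), from 250 bases before to 50 after the gene start, were found for 10 of the 10 members. The core of the C/EBP-ATF composite element, TGATGNAA, was searched on both strands and was present in 5 members and in 3.97% of all 32851 windows. In the lines that follow, which run 5′ to 3′ along the strand of the gene, capitals mark each match. The Atf3 stretch lies at chr1:191183406-191183473 (minus strand), that of Asns at chr6:7693195-7693262 (minus), that of Trib3 at chr2:152344011-152344076 (minus), that of Chac1 at chr2:119351019-119351086 (plus) and that of Herpud1 at chr8:94386287-94386417 (plus).
Atf3: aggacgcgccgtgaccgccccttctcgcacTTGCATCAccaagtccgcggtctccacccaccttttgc
Asns: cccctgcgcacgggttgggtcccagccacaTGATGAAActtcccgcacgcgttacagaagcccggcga
Trib3: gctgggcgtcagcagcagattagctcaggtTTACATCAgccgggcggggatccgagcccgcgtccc
Chac1: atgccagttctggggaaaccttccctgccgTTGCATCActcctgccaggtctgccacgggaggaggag
Herpud1: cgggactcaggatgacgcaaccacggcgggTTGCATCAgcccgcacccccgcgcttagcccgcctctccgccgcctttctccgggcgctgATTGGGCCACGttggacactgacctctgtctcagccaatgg

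The element read along the gene's own strand in Asns and on the opposite strand in Atf3, Trib3, Chac1 and Herpud1. Counted from the gene start, it began at -110 in Atf3, -23 in Asns, 15 in Trib3, -193 in Chac1 and -112 in Herpud1. Herpud1 also held, in the second run of capitals, the ER stress response element II, an ATTGG box and a CCACG box with 1 base between them, starting at -52, which 0.0365% of all windows held. No member's window held the cAMP response element TGACGTCA (1.79% of all windows), the unfolded protein response element TGACGTGG (0.676%) or the ER stress response element, a CCAAT box and a CCACG box set 9 bases apart (0.119%). A match is only a run of letters, and these windows are short. Among the 270 tested genes with the composite core, 25 (9.26%) were called higher and 65 (24.1%) lower in ICGN at 8 weeks, beside 8.28% and 26.2% of the 10008 tested genes with a window. At 4 weeks 7 of the 270 (2.59%) were called higher and 0 lower, beside 1.53% and 1.35%. At 8 weeks the call rates of genes with the core thus lay within 3 percentage points of those of all genes.

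**Figure D1:**
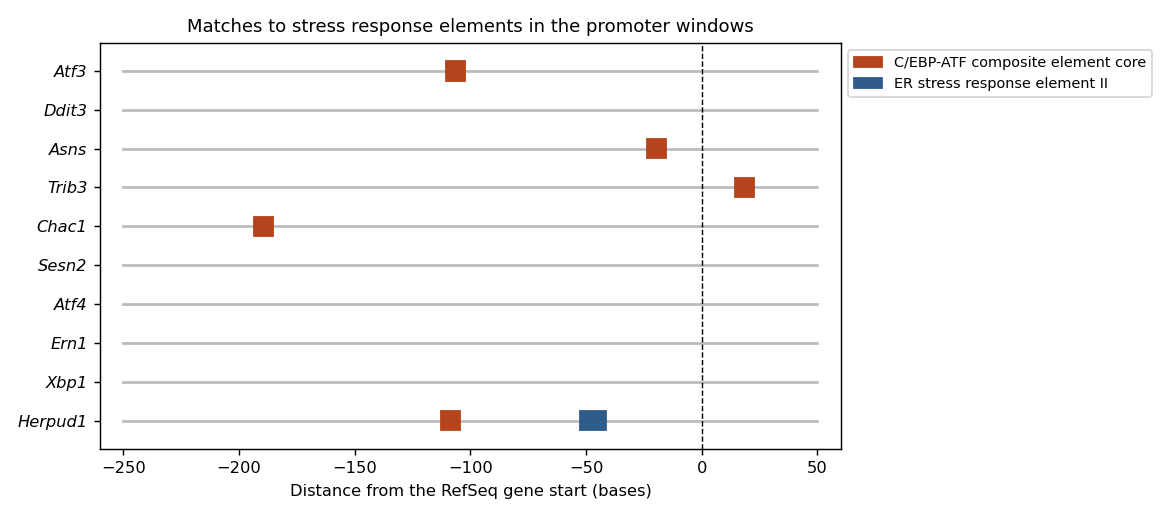
Positions of matches in the promoter windows of the 10 genes. Each grey line runs from 250 bases before to 50 after the RefSeq gene start (dashed line), and boxes mark matches to the C/EBP-ATF composite element core (5 genes) and to the ER stress response element II (Herpud1).

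The arrays of a group correlated with each other at r of 0.977 to 0.988 over the 12385 genes tested. The deposited signals (linear MAS5 intensities) had been scaled by age, with array medians of 17.4 to 19.0 at 4 weeks and 75.3 to 107.8 at 8 weeks, and each array was therefore rescaled to one median of 40.4; age and the authors' scaling cannot be told apart. Fold changes are log2 differences of signal + 9 and are given relative to the median of the 12385 genes tested, which lay at -0.02 between the strains at 4 weeks and at -0.19 at 8 weeks. The p-values are those of limma's moderated test on the difference before that subtraction, adjusted by Benjamini-Hochberg over all 12385 genes, and the threshold for a call was an adjusted p of 0.05. All 13 proximal tubule markers passed the filter on low signal, as the tissue label asks. At 8 weeks 10 of them (76.9%) were called lower in ICGN, beside 26% of all genes. Summed macrophage markers (14 of 15) ranged from 2684 to 3546 in ICR and 4458 to 5157 in ICGN at 4 weeks, and from 3682 to 4938 in ICR and 8028 to 9991 in ICGN at 8 weeks. In bulk cortex, fewer cells of a type and less RNA per cell cannot be told apart. The 3′ to 5′ signal ratio of the Actb control, a sign of RNA quality, was 1.57 to 1.64 in ICGN and 1.70 to 2.10 in ICR at 8 weeks, against 1.34 to 1.49 in all 4-week arrays. The same ratio of the Gapdh control did not show this. It was 0.79 to 0.80 in ICGN and 0.78 to 0.81 in ICR at 8 weeks, and 0.79 to 0.82 in the 4-week arrays.

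The strain comparison at each age asks how expression in nephrotic cortex differs from that in normal cortex. At 8 weeks the 10 genes did not move as a block: Atf3 and Asns were higher in ICGN, Atf4 and Xbp1 were called lower by small amounts, and the call was not reached for Ddit3, Trib3, Chac1, Ern1, Herpud1 and Sesn2. These 2 higher and 2 lower calls stand beside 8.51% of all tested genes called higher and 26% called lower (34.5% in either direction). The members' median fold change was 0.08 on the log2 scale. At 4 weeks 1 member, Atf3, was called higher and 0 lower, beside 1.6% and 1.38% of all genes (2.98% in either direction), and the members' median was 0.26. Without adjustment, 4 members were higher and 2 lower at p under 0.05 at 4 weeks, 60% of the members beside 15% of all genes. The members were chosen with earlier results of these data known, so that larger share is no support for a change of the group.

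**Figure D2:**
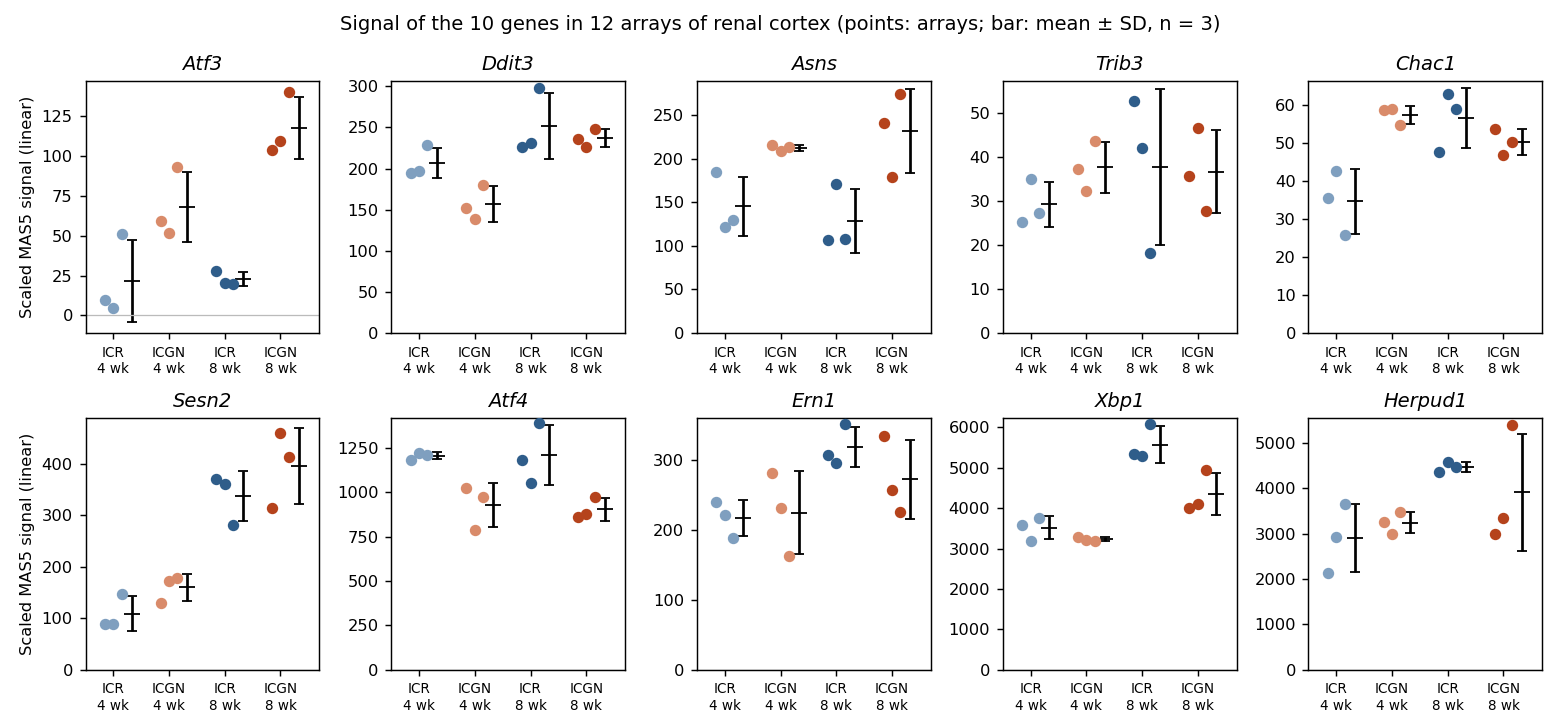
Scaled MAS5 signal (linear) of the probe set standing for each of the 10 genes in the 12 arrays. Points are arrays and the bar beside them is the mean ± SD (n = 3); in Atf3 all 3 ICGN arrays lay above all 3 ICR arrays at both ages, while in Atf4 they lay below at both ages.

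Atf3 encodes a stress-induced bZIP transcription factor that acts mainly as a repressor and is also induced by cytokines and by growth signals. Its scaled signal at 8 weeks was 103.7, 109.3 and 139.9 in ICGN and 27.8, 20.4 and 19.9 in ICR. At 4 weeks it was 59.2, 51.6 and 93.0 in ICGN and 9.50, 4.41 and 51.0 in ICR. All ICGN arrays lay above all ICR arrays at both ages, but at 4 weeks the third ICR replicate almost reached the lowest ICGN array, and the gene lay below the array median in 5 of the 6 ICR arrays. On the log2(signal + 9) scale the difference was 2.18 ± 0.41 (SE) at 8 weeks (adjusted p = 0.0019) and 1.63 ± 0.41 at 4 weeks (adjusted p = 0.046). Atf3 passed the filter on low signal mainly through the ICGN arrays, and its ICR level was not shown to lie above background, so the size of the difference depends on the offset and no fold is given. A stricter filter on low signal removed Atf3, so that setting cannot check its calls. The call at 8 weeks was kept in all 16 alternatives in which Atf3 was tested, none of which shows that its ICR level lay above background. That at 4 weeks was lost in 9 of 16, with an adjusted p of 0.089 to 0.17 when any one 4-week array other than the third ICR replicate was left out, and without that replicate the difference was 2.24 (adjusted p = 0.0014).

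Asns encodes asparagine synthetase, the classical amino acid response target of ATF4, whose window above places the composite core next to the gene start. Its main probe set read 241.2, 179.4 and 274.2 in ICGN and 106.8, 171.2 and 107.6 in ICR at 8 weeks. At 4 weeks the values were 215.4, 209.0 and 213.1 in ICGN and 184.4, 122.0 and 129.4 in ICR. The strains did not overlap at either age, although the second replicates of the 8-week groups lay close to each other. Relative to the median gene, Asns was 1.00 ± 0.20 higher in ICGN at 8 weeks (2.01-fold), and before the subtraction it was 0.82 higher (adjusted p = 0.0054). The difference of 0.56 ± 0.20 at 4 weeks did not pass (adjusted p = 0.18). The 8-week call was kept in all 17 alternatives run. A second probe set, 1433966_x_at, read 99.3, 135.9 and 162.6 in ICGN and 34.1, 40.6 and 63.3 in ICR at 8 weeks, a difference of 1.52 ± 0.26 (adjusted p = 0.0014 over 24790 probe sets). The mean of both probe sets was also called at 4 weeks, at 0.75 (adjusted p = 0.039).

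Atf4 itself, the transcription factor of the response, went the other way on the mRNA level. Its main probe set read 1023, 788.9 and 970.4 in ICGN and 1182, 1222 and 1212 in ICR at 4 weeks. The 8-week values were 857.9, 874.9 and 974.8 in ICGN and 1184, 1054 and 1389 in ICR. The strains did not overlap at either age, with ICGN below ICR. Before the subtraction the difference was -0.41 ± 0.13 at 8 weeks (adjusted p = 0.022), and relative to the median gene it was -0.23. At 4 weeks the corresponding values were -0.38 and -0.37 (adjusted p = 0.14). The 8-week call was lost under quantile normalization (-0.09, adjusted p = 0.45) and the authors' own scaling (adjusted p = 0.26), and without the first or second ICGN or the third ICR replicate (adjusted p of 0.065 to 0.11). A second probe set, 1438992_x_at, was lower at 4 weeks in all 3 ICGN arrays (230.4, 217.6 and 198.0 against 295.9, 291.1 and 302.8 in ICR), with no call (-0.42, adjusted p = 0.31), and overlapped between the strains at 8 weeks (-0.09, adjusted p = 0.38).

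Ddit3 encodes CHOP, the transcription factor tied to the death-promoting arm of ER stress. At 4 weeks it read 152.4, 138.1 and 180.5 in ICGN and 194.6, 197.2 and 228.2 in ICR. At 8 weeks it read 235.6, 226.7 and 248.4 in ICGN and 225.9, 230.9 and 298.2 in ICR. The strains were separate at 4 weeks, ICGN lying below, and overlapped at 8 weeks. Neither difference was called: -0.36 ± 0.14 at 4 weeks (adjusted p = 0.18) and 0.11 ± 0.14 at 8 weeks (adjusted p = 0.70, 95% interval -0.18 to 0.41). A dimmer probe set of Ddit3, 1443897_at, stayed below the filter on low signal and was not tested; it read 31.8, 45.2 and 48.8 in ICR at 4 weeks and 7.65, 7.92 and 4.63 in ICGN, and at most 18.4 in any 8-week array.

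Trib3, Chac1 and Sesn2 act further down: TRIB3 is a pseudokinase that dampens ATF4 and AKT signalling, CHAC1 degrades glutathione, and sestrin 2 restrains mTORC1 when leucine is short. Chac1 read 58.9, 58.9 and 54.7 in ICGN and 35.7, 42.6 and 25.7 in ICR at 4 weeks. At 8 weeks it read 53.7, 47.0 and 50.4 in ICGN and 47.8, 63.0 and 59.0 in ICR. Its groups were separate at 4 weeks only, where the difference was 0.64 ± 0.20 (adjusted p = 0.12), and at 8 weeks it was 0.05 ± 0.20 (adjusted p = 0.62). The change of the strain difference between the ages, tested as an interaction, was -0.59 ± 0.29 and was not called (adjusted p = 0.11). Sesn2 overlapped between the strains at both ages, with differences of 0.56 ± 0.20 (adjusted p = 0.18) and 0.40 ± 0.20 (adjusted p = 0.42). Trib3 read between 18.3 and 52.8 in all 12 arrays, and lay below the array median in 8 of them. Its 2 probe sets were uncorrelated (r = -0.09 over 12 arrays), and its differences of 0.31 ± 0.30 at 4 weeks and 0.21 ± 0.30 at 8 weeks were not called (adjusted p of 0.74 and 0.95).

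Ern1, Xbp1 and Herpud1 stand for the unfolded protein response proper, as sensor, transcription factor and ER membrane protein of the degradation machinery. Xbp1 read 4003, 4103 and 4957 in ICGN and 5352, 5287 and 6096 in ICR at 8 weeks, with no overlap. At 4 weeks it read 3282, 3213 and 3194 in ICGN and 3594, 3198 and 3756 in ICR, and the strains overlapped. The 8-week difference was -0.36 ± 0.12 before the subtraction (adjusted p = 0.027) and -0.17 relative to the median gene. It was lost under quantile normalization, where the sign turned (0.06, adjusted p = 0.75), under the authors' scaling (adjusted p = 0.25), and without the first or second ICGN or the third ICR replicate (adjusted p of 0.079 to 0.11). Of the other 3 Xbp1 probe sets, none was called between the strains at 8 weeks (adjusted p of 0.093 to 0.45). Plasma cells are rich in Xbp1 mRNA. Summed B and plasma cell markers (4 of 10 above the filter) were 544.0 to 692.1 in ICGN and 1054 to 3936 in ICR at 8 weeks. Most of the sum in ICR was Jchain, with a mean of 2195.5 there and 343.3 in ICGN. Jchain and Mzb1 were called lower in ICGN (-2.23 and -0.80), while Prdm1 and Sdc1 were not called (-0.43 and 0.33, adjusted p of 0.066 and 0.43). The part of plasma cells in the Xbp1 difference was not tested.

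Herpud1 read 2997, 3332 and 5389 in ICGN and 4360, 4571 and 4466 in ICR at 8 weeks. One ICGN array, the third, lay above all ICR arrays and the others below, and the difference was -0.06 ± 0.20 (adjusted p = 0.37). Without that array Herpud1 was called lower (-0.25, adjusted p = 0.040). At 4 weeks the arrays overlapped, at 3246, 2998 and 3464 in ICGN and 2142, 2913 and 3640 in ICR, and the difference was 0.21 ± 0.20 (adjusted p = 0.74). Both Herpud1 probe sets agreed closely over the arrays (r = 0.98). Ern1 overlapped between the strains at both ages, ranging from 161.8 to 280.1 at 4 weeks and from 224.6 to 350.2 at 8 weeks, with differences of 0.04 ± 0.18 and -0.05 ± 0.18 (adjusted p of 0.98 and 0.34).

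**Figure D3:**
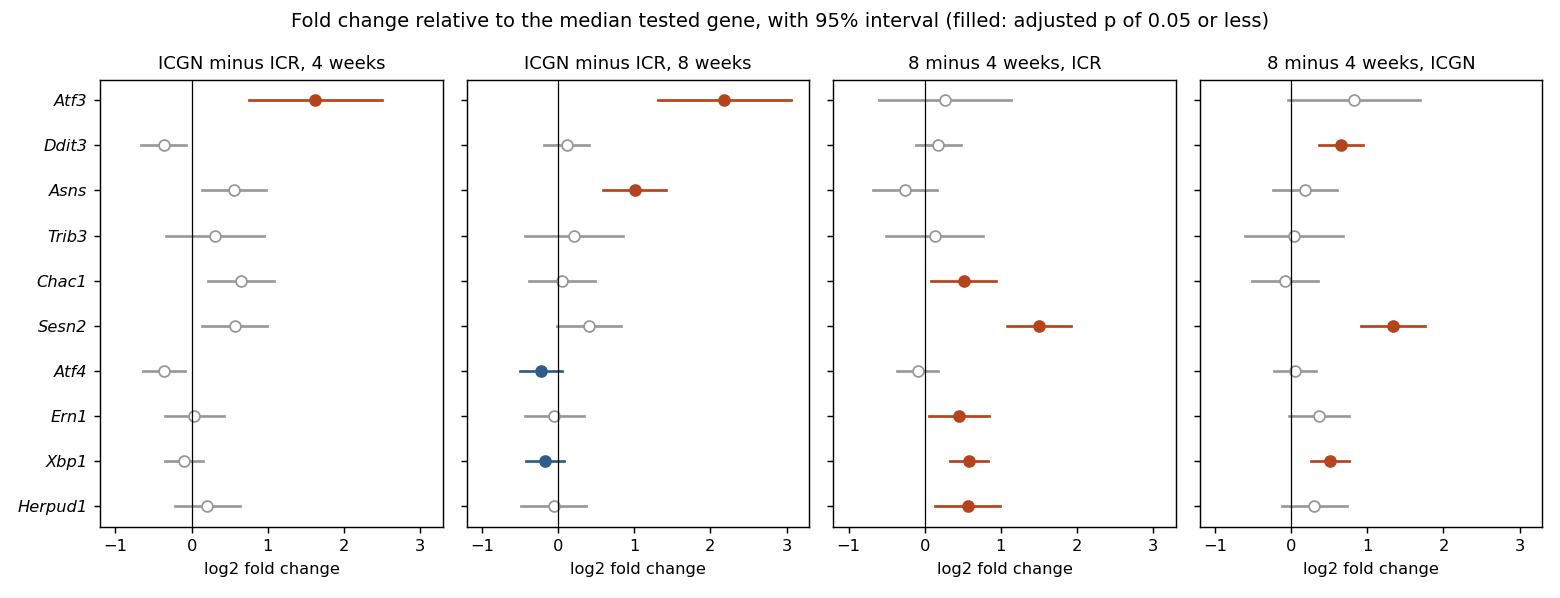
Log2 fold changes of the 10 genes relative to the median tested gene, with 95% intervals, in the 2 strain and 2 age comparisons. Filled points were called; Atf4 and Xbp1 at 8 weeks are filled although their intervals reach past 0, because the test is of the difference before the median of -0.19 is subtracted.

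Counted by separation of the arrays, 3 members (Atf3, Asns and Chac1) lay wholly above and 2 (Atf4 and Ddit3) wholly below in ICGN at 4 weeks, where 10.8% and 12% of all genes did so. At 8 weeks 2 (Atf3 and Asns) lay wholly above and 2 (Atf4 and Xbp1) wholly below, beside 11.2% and 33.3%. Atf3 and Atf4 thus kept opposite sides of ICR at both ages, and Atf3 and Asns the same side. Over the 12 arrays, the 3 tested genes most correlated with Atf3 were Fyb, Gpr65 and Aif1 (r of 0.94, 0.94 and 0.93), genes known from leukocytes and macrophages. Those nearest to Asns were Gm19935, Csf2ra and Mgst1 (0.94, 0.92 and 0.91), those nearest to Atf4 were Tmtc3, Saraf and Gkap1 (0.94, 0.93 and 0.93), and Xbp1 had Med13, Psma7 and Ell2 at 0.98 each. These r values share the 4 group means and carry no p. Atf4 and Asns correlated at -0.77 over the 12 arrays and at -0.26 once each group's mean was removed.

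The age comparisons ask what changes between 4 and 8 weeks within a strain. In ICR 5 members (Sesn2, Xbp1, Herpud1, Chac1 and Ern1) were called higher at 8 weeks and 0 lower, beside 18% and 10.7% of all genes (28.7% in either direction). In ICGN 3 members (Sesn2, Ddit3 and Xbp1) were called higher and 0 lower, beside 6.35% and 12.8% (19.1%). No member was called lower at p under 0.05 without adjustment in either strain. The members' medians were 0.36 in ICR and 0.33 in ICGN. Wholly separate and higher at 8 weeks were 5 members in ICR and 4 in ICGN (Atf3, Ddit3, Xbp1 and Sesn2), beside 26.1% and 12.1% of all genes, and wholly lower were 0 and 1 (Chac1), beside 15.9% and 25.7%.

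Sesn2 showed the largest age change of the 10 genes. It read 89.0, 89.6 and 147.9 in ICR at 4 weeks and 370.9, 361.4 and 280.9 at 8 weeks. In ICGN it read 129.6, 171.8 and 178.9 at 4 weeks and 314.2, 460.0 and 413.3 at 8 weeks. All 8-week arrays lay above all 4-week arrays in both strains, and the change was 1.496 ± 0.198 in ICR (2.82-fold, adjusted p = 4.1e-05) and 1.34 ± 0.20 in ICGN (2.52-fold, adjusted p = 6.3e-04). The second Sesn2 probe set, 1451599_at, did not show it: it changed by -0.39 in ICR and -0.64 in ICGN without a call (adjusted p of 0.60 and 0.24), and the probe sets were uncorrelated (r = -0.09). With the mean of both probe sets, neither age change of Sesn2 was called (0.57 and 0.35, adjusted p of 0.10 and 0.51).

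Xbp1 rose with age in both strains, by 0.58 ± 0.12 in ICR (adjusted p = 7.2e-04) and 0.50 ± 0.12 in ICGN (adjusted p = 0.020), and its probe set 1420011_s_at was called too, at 0.88 and 0.79, while 1420886_a_at and 1420012_at were not. Summed B and plasma cell markers also differed by age, at 294.5 to 324.7 at 4 and 1054 to 3936 at 8 weeks in ICR. In ICGN the sums were 302.8 to 340.4 and 544.0 to 692.1. Jchain was called higher in both strains (5.27 and 3.11), and Mzb1 in ICR (1.19, against 0.48 in ICGN, adjusted p = 0.31). Prdm1 was called higher in ICR too (0.76), and changed by 0.02 in ICGN with no call. Sdc1 was not called in either strain (-0.41 in ICR, -0.16 in ICGN). The part of plasma cells in the age change of Xbp1 was not tested. Ddit3 rose in ICGN by 0.66 ± 0.14 (adjusted p = 0.0093) and changed by 0.18 ± 0.14 in ICR (adjusted p = 0.16). Herpud1 rose in ICR by 0.57 ± 0.20 (adjusted p = 0.023), Chac1 by 0.51 ± 0.20 (adjusted p = 0.038) and Ern1 by 0.45 ± 0.18 (adjusted p = 0.039). In ICGN these 3 genes changed by 0.31, -0.08 and 0.36 with no call (adjusted p of 0.47, 0.62 and 0.30). Of the 5 calls in ICR, those of Herpud1 and Ern1 were lost under quantile normalization (adjusted p of 0.074 and 0.14), and 3 rested on single arrays (adjusted p of 0.053 to 0.14 without them). Chac1 lost its call without replicate 1 or 3 at 4 weeks or 2 or 3 at 8 weeks, Ern1 without replicate 2 or 3 at 4 weeks or 1 or 3 at 8 weeks, and Herpud1 without replicate 1 or 2 at 4 weeks or 2 or 3 at 8 weeks, all of ICR. Xbp1 in ICGN lost its call without any one of the 3 ICGN 4-week arrays or the third 8-week one (adjusted p of 0.054 to 0.068), and Ddit3 without the second 4-week array (adjusted p = 0.051).

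Whether the strains differed in their age change was tested by the interaction. It called 0 of the 10 members, beside 2.19% of all genes called higher and 5.66% called lower (7.85% in either direction), and 1 member, Chac1, passed at p under 0.05 without adjustment. A call in one strain and not in the other is therefore not shown to be a difference between the strains for any of them.

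**Figure D4:**
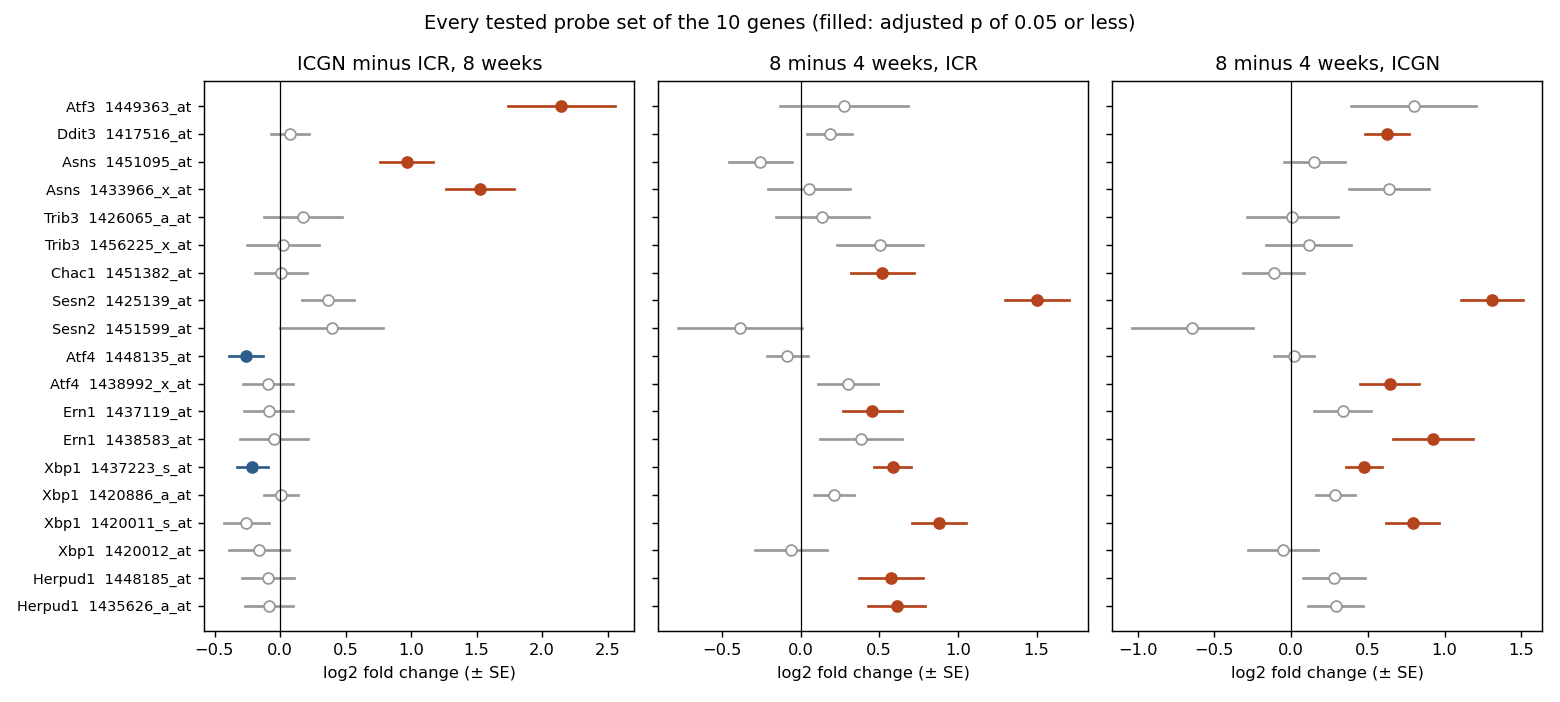
Log2 fold change ± SE of each of the 19 tested probe sets of the 10 genes in the 8-week strain comparison and both age comparisons, relative to the median probe set. Filled points were called over 24790 probe sets; the 2 Asns probe sets lay on the same side in the strain comparison, whereas the 2 Sesn2 probe sets lay on opposite sides in both age comparisons.

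Members had 1 to 5 probe sets each, and 19 of the 24 passed the filter on low signal; those that did not were 1 each of Atf4 and Ddit3 and 3 of Ern1. Probe sets of one gene agreed best for Herpud1 and for 3 of the 4 probe sets of Xbp1 (r of 0.87 to 0.95), followed by Asns (0.74), Ern1 (0.60) and Atf4 (0.55). When all probe sets were fitted one by one, Atf3 just missed the threshold at 4 weeks (adjusted p = 0.053). In ICGN the second probe sets of Atf4 and Ern1 were called higher with age (0.64 and 0.92, adjusted p of 0.043 and 0.030), where the main probe sets were not.

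The wider pathway was read from lists of known ATF4 targets and ER stress genes. At 8 weeks more genes were called lower than higher over the whole array, 3224 against 1054, and this balance depended on the scaling: quantile normalization gave 1669 lower and 1699 higher, scaling on the tested genes 2746 and 1442, and the authors' scaling 1484 and 2224. At 4 weeks the counts of 171 lower and 198 higher became 220 and 338, 238 and 260, and 204 and 336. List counts are therefore given with the number kept in all 4 scalings.

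Amino acid and serine synthesis genes under ATF4 included 4 of 13 called higher and 3 lower at 8 weeks (30.8% and 23.1%, beside 8.51% and 26% of all genes), and those 7 were kept in all 4 scalings. The list's median fold change was 0.22. Higher in ICGN were Asns, Aldh1l2 and Mthfd2 of mitochondrial one-carbon metabolism (1.52 ± 0.33, adjusted p = 0.0065, and 0.73 ± 0.19, adjusted p = 0.035) and Phgdh, the first enzyme of serine synthesis (0.77 ± 0.13, adjusted p = 0.0039). The Aldh1l2 signal in ICR at 8 weeks was 40.4 ± 26.7 (SD, n = 3), at the level of the array median of 40.4. The size of the Aldh1l2 difference therefore depends on the offset. Lower were Cbs and Cth, which convert homocysteine to cysteine (-1.73 ± 0.14, adjusted p = 6.9e-07, and -0.48 ± 0.14, adjusted p = 0.0021), and Shmt2, the mitochondrial serine hydroxymethyltransferase (-0.71 ± 0.13, adjusted p = 1.8e-04). Psat1, the next enzyme of serine synthesis, was at -0.41 with no call (adjusted p = 0.063). At 4 weeks 1 was called higher (Mthfd1l, 0.73) and 1 lower (Phgdh, -0.69, adjusted p = 0.0083), beside 1.6% and 1.38% of all genes.

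Phgdh thus lay on opposite sides of ICR at the 2 ages. Its signal was 1235 ± 156.3 in ICR and 752.9 ± 115.7 in ICGN at 4 weeks and 331.2 ± 17.3 in ICR and 502.9 ± 52.2 in ICGN at 8 weeks (SD, n = 3). Of 7 measured amino acid transporters, Slc7a1 for cationic amino acids (1.01 ± 0.20, adjusted p = 0.0055) and Slc38a2 for small neutral amino acids (0.95 ± 0.19, adjusted p = 0.0058) were called higher at 8 weeks in all 4 scalings. Slc1a4 and Slc3a2 were called lower (-0.58 and -0.21), but neither in all 4. The shares called higher and lower were 28.6% each, beside 8.51% and 26% of all genes, so the lower share was near that of all genes. Slc7a11, the cystine importer that is a textbook ATF4 target, did not pass the filter on low signal and was not tested. At 4 weeks 0 of the 7 were called, beside 2.98% of all genes. Without adjustment 1 was higher at p under 0.05 (14.3%, near the 15% of all genes).

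The cytosolic aminoacyl-tRNA synthetases, charging enzymes that ATF4 also raises, held 0 of 13 genes called higher and 4 lower at 8 weeks, a share of 30.8% near the 26% of all genes called lower, with a median of 0.02. The authors' scaling gave 2 higher and 2 lower, and quantile normalization 1 and 2. Xpot, the tRNA export factor on that list, and Aars were the 2 kept in all 4 scalings (-0.57 ± 0.12, adjusted p = 3.7e-04, and -0.40 ± 0.10, adjusted p = 6.3e-04). At 4 weeks 0 were called and 0 passed at p under 0.05 without adjustment, beside 2.98% and 15% of all genes. Among 18 measured stress effectors of ATF4 and CHOP, which include Atf3, Ddit3, Trib3, Chac1 and Sesn2, 5 were called higher and 1 lower at 8 weeks, beside the 8.51% and 26% of all genes, with a median of 0.42. The higher ones were Atf3, Nupr1, a stress-induced chromatin protein (1.83 ± 0.33, adjusted p = 0.0016), Bcl2l11, the death factor BIM (0.73 ± 0.15, adjusted p = 0.012), Eif4ebp1, the inhibitor of cap-dependent translation (0.82 ± 0.20, adjusted p = 0.026), and Stc2 (0.83 ± 0.24, adjusted p = 0.047). All but Stc2 were kept in all 4 scalings. Ppp1r15a, the phosphatase subunit GADD34 that reverses eIF2 phosphorylation, was at 0.34 and 0.04 at 4 and 8 weeks with no call (adjusted p of 0.26 and 0.43).

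The lists of the ER arm follow. Of 25 measured stress sensors and eIF2 regulators, 0 were called higher and 8 lower at 8 weeks, Atf4 and Xbp1 among them, a share of 32% near the 26% of all genes called lower. Quantile normalization gave 2 higher and 2 lower, the authors' scaling 3 and 2, and scaling to the median of the tested genes 2 and 8. The median was -0.05. The 2 kept in all 4 scalings were Eif2ak1, the haem-regulated eIF2 kinase (-0.63 ± 0.13, adjusted p = 2.7e-04), and Dnajc3, the ER co-chaperone p58IPK (-0.51 ± 0.11, adjusted p = 3.2e-04). Eif2ak3, which encodes the ER kinase PERK, and Atf6 were at 0.28 and -0.04 with no call (adjusted p of 0.68 and 0.20). Without adjustment 1 of these genes was higher at 8 weeks.

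Of 22 ER chaperones and foldases, 0 were called higher and 6 lower at 8 weeks (27.3%, near the 26% of all genes called lower), with a median of -0.04, and P4hb, the protein disulphide isomerase (-0.50 ± 0.12, adjusted p = 5.6e-04), and Sil1, the nucleotide exchange factor of BiP (-0.62 ± 0.15, adjusted p = 8.8e-04), led them. Quantile normalization gave 6 higher and 3 lower, and 3 were lower in all 4 scalings. Hspa5, which encodes BiP, the standard marker of ER stress, read 5191 ± 1216 in ICGN and 6231 ± 583.6 in ICR at 8 weeks and 4989 ± 644.4 and 5694 ± 370.4 at 4 weeks (SD, n = 3), and was called at neither age (-0.10 ± 0.15, adjusted p = 0.16, and -0.18 ± 0.15, adjusted p = 0.63). Of 29 genes of ER-associated degradation and translocation, 1 was called higher and 14 lower at 8 weeks (48.3% beside 26% of all genes), and 1 and 5 were so in all 4 scalings. The lower ones included Sel1l and Syvn1, the core of the retrotranslocation ligase (-0.49 ± 0.11, adjusted p = 3.2e-04, and -0.56 ± 0.13, adjusted p = 6.3e-04), and Rnf5 (-0.50 ± 0.11, adjusted p = 4.0e-04). Srprb, a subunit of the signal recognition particle receptor, was higher (1.10 ± 0.17, adjusted p = 9.6e-04). At 4 weeks 0 genes of these 3 ER lists were called, beside only 2.98% of all genes. Without adjustment 3 were higher and 3 lower at p under 0.05, where 15% of all genes passed. Proximal tubule markers also summed lower at 8 weeks, at 55131 to 71073 in ICGN and 94881 to 113374 in ICR, and their part in the ER lists was not tested.

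**Figure D5:**
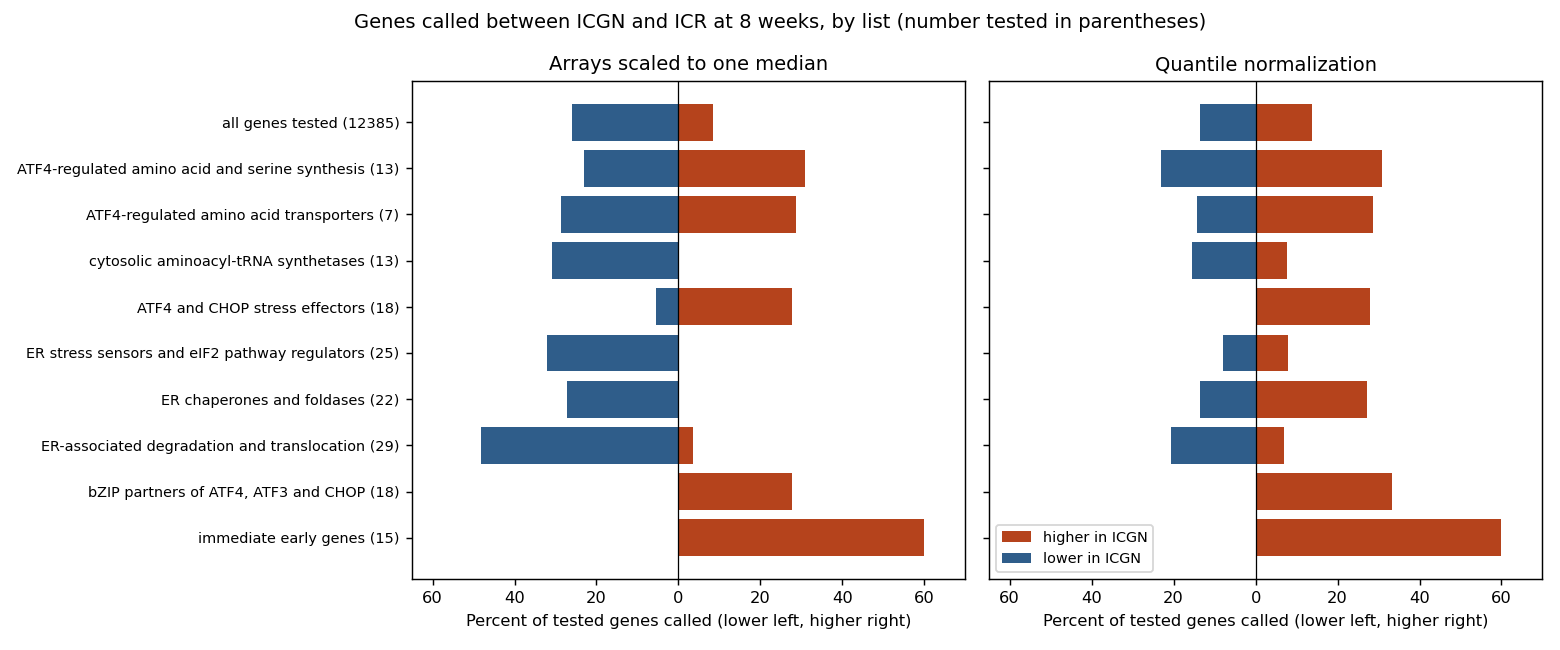
Percent of the tested genes of each list called higher (right, red) or lower (left, blue) in ICGN at 8 weeks, with arrays scaled to one median and with quantile normalization. The first row gives all 12385 genes; the stress effector, bZIP and immediate early lists lean to higher under both, while the chaperone list changes from 6 lower and 0 higher to 3 lower and 6 higher.

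ATF4, ATF3 and CHOP act as dimers with other bZIP proteins. Of 18 measured partners, 5 (27.8%) were called higher at 8 weeks and 0 lower, beside 8.51% and 26% of all genes. All 5 were kept in all 4 scalings, and the list's median was 0.25. They were Fos (3.27 ± 0.33 on the log2(signal + 9) scale, adjusted p = 1.4e-05), Fosl2 (1.27 ± 0.18, adjusted p = 3.8e-04), Batf3 (0.84 ± 0.23, adjusted p = 0.036), Jun (0.74 ± 0.19, adjusted p = 0.038) and Cebpd (0.76 ± 0.21, adjusted p = 0.044). The Fos signal in ICR at 8 weeks was 23.0 ± 10.6 (SD, n = 3), below the array median of 40.4 and not shown to lie above background, so the size of its difference depends on the offset. Cebpb was at 0.61 with no call (adjusted p = 0.17). Without adjustment 1 partner was lower. Fos and Jun are also immediate early genes, which rise within minutes of injury or of tissue handling. Of 15 measured genes of that class, 9 (60%) were called higher at 8 weeks and 0 lower, beside 8.51% and 26% of all genes. Without adjustment 1 of them was lower. The calls were led by Egr1 (2.56 ± 0.24, adjusted p = 1.0e-05). At 4 weeks Egr1 and Myc were called (1.16 and 1.00). Atf3 can be induced in the same way, and the summed immediate early signal was 5316 to 8775 in ICGN and 3738 to 5619 in ICR at 8 weeks, with overlapping arrays. The brightest gene in that sum was Dusp1, at 1756 ± 494 in ICGN and 2114 ± 763 in ICR (SD, n = 3), which was not called (-0.04, adjusted p = 0.55). The overlap of the sum therefore says little about the dimmer genes that were called. In the same arrays 13 of 14 macrophage markers and 9 of 10 tubular injury markers were called higher (92.9% and 90%), beside 8.51% of all genes. The part of handling, infiltrating cells and injured tubules in the Atf3 and Asns differences was not tested.

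With age, more genes of the ER lists were called in ICR than in ICGN, as was so over all genes (18% higher and 10.7% lower in ICR, 6.35% and 12.8% in ICGN). Degradation and translocation genes were called higher for 13 of 29 and lower for 2 in ICR, and higher for 1 and lower for 2 in ICGN. For sensors and eIF2 regulators the counts were 9 higher and 0 lower of 25 in ICR and 2 and 3 in ICGN, and for chaperones 6 and 1 of 22 in ICR and 1 and 3 in ICGN. The interaction called 4 degradation genes, 2 sensor or eIF2 genes and 1 chaperone lower and 0 higher in these lists, beside 5.66% of all genes called lower. Under quantile normalization the age calls over all genes were 1716 higher and 2082 lower in ICR, in place of 2224 and 1326, and 1298 and 1940 in ICGN, in place of 787 and 1584, so the balance of age calls also rests on the scaling.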

How the data were processed

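The authors deposited one table of linear signal intensity values, a row for each probe set. The submitters' processing notes name MAS5 as the tool, with no version in the sources used here. Per the file, the trimmed mean was 100 in every 4-week and 500 in every 8-week array. Each array was rescaled to a median of 40.4 and log2(signal + 9) was taken. The offset of 9 is the rounded 25th percentile of the deposited values of all 12 arrays together, before the rescaling. Probe sets above their array's median in at least 3 of 12 arrays were tested, 64 controls and those with several or no symbols left out, and the brightest probe set stood for a gene (those ending in _x_at last). One limma fit (R 4.3.3, limma 3.58.1; lmFit, eBayes with trend) with 4 group means and 8 residual degrees of freedom gave 5 contrasts over 12385 genes. The script was tested on simulated data. Array number limits the precision. The members and lists were chosen with earlier results of these data known. Named genes were the members, up to 5 called genes of a list by adjusted p, textbook leaders, and the 3 most correlated genes per called member. Alternatives covered offset, scaling, filter, trend, probe set choice, arrays in the fit, a replicate block and leaving out each array.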

Additional observations from a re-analysis of the deposited data

Results flagged for a closer look

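None of the 10 members was picked out here. Of 154 genes of the pathway lists, 15 had a strain difference that changed between 4 and 8 weeks by the interaction test. That share is not far above the 7.85% of all genes, so the genes are named as single results and not as a trait of the lists. Ero1b also lay on opposite sides of ICR at the 2 ages, without passing that test. Groups of 3 arrays were not examined for single deviating arrays. Values are the interaction (log2, the 8-week strain difference minus that at 4 weeks, relative to the median gene), with adjusted p over 12385 genes by limma. The p belongs to the interaction before the median of -0.17 was subtracted. Over all genes, the 271 higher and 701 lower interaction calls became 481 and 411 under quantile normalization. The calls named here were not checked under other scalings.

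In 5 genes the ICGN minus ICR difference was shifted upward at 8 weeks: Phgdh (1.47, adjusted p = 0.0024), Cebpd (1.36, adjusted p = 0.025), Fos (2.24, adjusted p = 0.017), Egr1 (1.41, adjusted p = 0.041) and Klf6 (1.39, adjusted p = 0.015). For Phgdh and Cebpd the sign turned, from -0.69 and -0.59 at 4 weeks to 0.77 and 0.76 at 8 weeks. Phgdh was called at both ages, but Cebpd was not called at 4 weeks (adjusted p = 0.15).

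In 10 genes it was shifted downward. These included Cbs (-1.38, adjusted p = 0.0011), and Aars (-0.59, adjusted p = 0.0081) and Xpot (-0.62, adjusted p = 0.016) of the aminoacyl-tRNA synthetase list. Further ones were the eIF2 pathway genes Eif2ak1 (-0.63, adjusted p = 0.017) and Dnajc3 (-0.43, adjusted p = 0.030), and the chaperone factor Sil1 (-0.55, adjusted p = 0.048). The degradation genes were Sel1l (-0.50, adjusted p = 0.018), Edem1 (-0.80, adjusted p = 0.018), Os9 (-0.36, adjusted p = 0.040) and Vcp (-0.44, adjusted p = 0.028). Ero1b (-0.36) lay wholly above ICR at 4 weeks and wholly below at 8 weeks, but its interaction was not called (adjusted p = 0.073). The interaction rests on arrays that the authors scaled separately by age.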

How the results depend on the processing

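Of 461 alternative values of single members, 393 kept their direction and side of the threshold, 49 lost and 4 gained a call, and 15 changed sign; where no value here shows it, the cause was not tested. Members called higher at 4 weeks (1) became 0 with an offset of 1, without a filter, with the filter at the 75th percentile (where Atf3 was not tested) and with only the 6 arrays compared, and 2 with the mean of probe sets (range without single arrays 0 to 2). Those higher at 8 weeks (2) became 1 under the 75th percentile filter, which removes Atf3. Those lower at 8 weeks (2) became 0 under quantile normalization, the authors' scaling, the mean of probe sets and the 6 arrays compared (range 0 to 3). Those higher with age in ICR (5) became 3 under quantile normalization and without a filter (range 2 to 4); the range in ICGN (3) was 1 to 3. Signs turned at 4 weeks for Ern1 (-0.27 with the mean of probe sets, range without single arrays -0.14 to 0.25). At 8 weeks they turned for Chac1 (-0.12 under quantile normalization, range -0.052 to 0.14), Xbp1 (0.062) and Herpud1 (0.19) under quantile normalization, for Ern1 (0.028) and Herpud1 (0.020) under the 75th percentile filter, and without single arrays for Trib3 (-0.17 to 0.47), Ern1 (-0.26 to 0.13) and Herpud1 (-0.25 to 0.052). None of these values with a turned sign was called. Over all genes, the 198 higher and 171 lower calls at 4 weeks became 338 and 220 under quantile normalization, 336 and 204 under the authors' scaling, and 231 and 258 with only the 6 arrays compared, and 89 to 167 and 78 to 144 without single arrays. The 1054 and 3224 at 8 weeks became 1699 and 1669 under quantile normalization, 2224 and 1484 under the authors' scaling, 562 and 2939 under the 75th percentile filter, and 2099 lower without the third ICR and 2113 without the first ICGN replicate. The 1326 lower with age in ICR became 2082 under quantile normalization and 805 under the 75th percentile filter. The 787 higher in ICGN became 1298 under quantile normalization and 1202 with scaling on the tested genes. Without single arrays the age calls ranged from 1443 to 2143 higher in ICR and from 461 to 905 higher and 982 to 1694 lower in ICGN. The interaction's 271 higher and 701 lower became 481 and 411 under quantile normalization, 479 higher with scaling on the tested genes, 446 lower without the trend, and 139 to 305 and 291 to 868 without single arrays. Of 297 list counts, 240 stayed within 1.5 times and 57 moved.

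The replicate numbers do not pair the samples: deviations of same-numbered arrays correlated at -0.09 to 0.09. With the replicate block, 1 member was called higher at 4 weeks, 2 higher and 2 lower at 8 weeks, and 5 and 3 higher with age, as without it. Low signal limits Atf3, which lay below the array median in 5 of 6 ICR arrays: its 4-week difference ranged from 0.93 to 2.24 over the alternatives.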
